A study of Mus musculus with 8 samples.

Results

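The 9 genes described here encode the enzymes that make serine from a glycolytic intermediate and carry its carbon unit through the folate pathway. They were chosen by gene symbol from a deposited table of 21692 genes. All 9 were in the table, and all 9 passed the filter on low counts, as did 15517 genes in all. Of the 9, 3 belong to serine synthesis (Phgdh, Psat1 and Psph), 4 to the mitochondrial one-carbon pathway (Shmt2, Mthfd2, Mthfd1l and Aldh1l2) and 2 to the cytosolic one-carbon pathway (Shmt1 and Mthfd1). RNA was sequenced from forelimb buds of CD1 mouse embryos taken on gestation day 13 and cultured for 24 hours. The vehicle group was cultured with dimethyl sulfoxide (DMSO), and the OPE group with a mixture of organophosphate esters, which are flame retardants and plasticisers, modelled on house dust and diluted 1 in 300000. Each group had 4 libraries, called vehicle 1 to 4 and OPE 1 to 4 below. The labels name no transgene or other treatment. They also do not state that each library had its own litter or culture, and the p-values therefore reflect only how much these libraries varied, which may be technical.

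Serine synthesis branches from glycolysis. PHGDH oxidises 3-phosphoglycerate, PSAT1 adds the amino group and PSPH removes the phosphate to give serine. Serine hydroxymethyltransferase then moves a carbon of serine onto tetrahydrofolate, leaving glycine, in the cytosol (SHMT1) or in mitochondria (SHMT2). In mitochondria MTHFD2 and MTHFD1L carry the folate-bound carbon on to formate, which leaves for the cytosol, while ALDH1L2 oxidises it to carbon dioxide with production of NADPH. In the cytosol the trifunctional enzyme MTHFD1 takes up formate for purine, thymidylate and methionine synthesis. Several genes of serine synthesis and of the mitochondrial arm are known targets of ATF4, the transcription factor of the integrated stress response. MTHFD2 is known for high levels in embryonic and dividing cells.

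The libraries held between 14986793 and 22006738 reads counted to genes. OPE 3 and OPE 1 each lay apart from the other libraries in a principal component analysis, so results that rest on them are also given without them. The limb markers were present: Tbx5, a transcription factor of the forelimb, averaged 284 CPM with vehicle and 308 CPM with OPE, while Tbx4, which marks the hindlimb, averaged 27.5 and 24.6 CPM. CPM is the read count of a gene scaled by library size and TMM factors.

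The sequences upstream of 3 members are shown: Phgdh and Mthfd2 were higher in every OPE library than in any vehicle library, and Mthfd1 is a cytosolic member whose groups overlapped. They come from RefSeq (GRCm38.p6, the assembly of mm10), run 5′ to 3′ on the strand of the gene and end at the gene's start in the deposited table. Capitals mark CCAAT on either strand, the box that the factor NF-Y binds. Phgdh is chr3:98339991-98340219 (minus strand), Mthfd2 chr6:83317607-83317854 (minus strand) and Mthfd1 chr12:76254982-76255231 (plus strand).
Phgdh: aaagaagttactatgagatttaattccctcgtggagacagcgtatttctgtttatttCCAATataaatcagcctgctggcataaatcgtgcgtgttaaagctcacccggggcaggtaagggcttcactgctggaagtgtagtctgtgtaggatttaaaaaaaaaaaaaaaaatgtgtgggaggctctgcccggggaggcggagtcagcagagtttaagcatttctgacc
Mthfd2: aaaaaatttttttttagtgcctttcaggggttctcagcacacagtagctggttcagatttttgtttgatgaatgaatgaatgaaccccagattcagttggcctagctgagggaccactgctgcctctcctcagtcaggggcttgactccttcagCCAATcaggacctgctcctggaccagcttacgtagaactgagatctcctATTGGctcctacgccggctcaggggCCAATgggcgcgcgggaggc
Mthfd1: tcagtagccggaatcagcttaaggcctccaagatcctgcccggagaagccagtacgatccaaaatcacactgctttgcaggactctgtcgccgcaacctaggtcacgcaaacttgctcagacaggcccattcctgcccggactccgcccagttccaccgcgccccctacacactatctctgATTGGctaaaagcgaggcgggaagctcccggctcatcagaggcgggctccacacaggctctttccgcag
Windows from 250 bases before to 50 bases after a RefSeq start were found for 8 of the members, all but Aldh1l2, with 9 windows in all because Psat1 has a pair of starts. TGATGNAA, the core that ATF4 binds with a partner of the C/EBP family, was searched on both strands and was in none of the 9 windows, against 3.97% of all 32851 windows. CACGTG, the E-box of MYC and other factors, was in none either, against 7.15%. CCAAT was in 6 of the 9 windows, against 37.4% of all windows, and the Mthfd2 stretch holds it 3 times. The Phgdh window holds it 2 times, and 1 of these lies outside the printed stretch. For Psat1 and Shmt1 the RefSeq starts lie inside the gene span of the deposited table. The CCAAT search was chosen after the sequences had been seen. A match, or its absence, in such a window describes letters only.

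The 3 serine synthesis genes and 3 of the 4 mitochondrial genes had higher means with OPE, though none passed the test, and the cytosolic genes stood near their vehicle levels. Mthfd2, Aldh1l2 and Phgdh were higher in all 4 OPE libraries than in any vehicle library, at 2.0, 3.14 and 1.66 times the vehicle level in the fit. Psph, Shmt2 and Psat1 gave smaller differences with overlapping groups, and Mthfd1l, Shmt1 and Mthfd1 gave log2 fold changes between -0.12 and 0.06. None of the 9 passed an adjusted p of 0.05 over all genes (edgeR quasi-likelihood test, Benjamini-Hochberg adjustment), where 0.477% of the 15517 genes passed in either direction 0.0387% as higher and 0.438% as lower. At an unadjusted p of 0.05 the count was 6 of 9, all higher, against 5.85% of all genes higher. Psat1, Psph and Shmt2 left that count without OPE 1 (edgeR unadjusted p = 0.0783, 0.0657 and 0.11). They also left it without vehicle 1 (edgeR unadjusted p = 0.0729, 0.073 and 0.0679). By other tools the count past an adjusted p of 0.05 was 3 with DESeq2, all higher (3.11% of all genes passed there, 1.04% as higher). It was 0 with limma-voom, where 101 of the 15517 genes passed, 13 as higher. The groups did not overlap for 3 of the 9 members, all higher. Over all genes they did not overlap for 9.49%, with 4.05% higher and 5.44% lower. The median log2 fold change was 0.39 over the 9 members and 0.01 over all genes tested. Over the members it was 0.24 without OPE 1 and 0.14 without OPE 1 and OPE 3. In buds made of several cell types, more cells of a type and more RNA per cell cannot be told apart.

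The authors' deposited table gives an adjusted p below 0.05 for 3 of the 9, all higher, against 2.68% of the 17759 genes with an adjusted p in it, or 0.878% as higher. In the authors' deposited table Mthfd2 has a log2 fold change of 0.76 (adjusted p = 0.00025), Phgdh 0.615 (adjusted p = 0.000627) and Aldh1l2 0.579 (adjusted p = 0.0377). For these 3 genes the log2 fold changes in the authors' deposited table are closer to 0 than those fitted here, most of all for Aldh1l2. DESeq2 run here gave 1.00 for Mthfd2, 0.73 for Phgdh and 1.65 for Aldh1l2. Its unadjusted p-values were 1.13e-06, 3.93e-06 and 0.000643 in that order. Those in the authors' deposited table lay nearby, at 1.08e-06, 3.67e-06 and 0.00091. The deposited fold changes may thus be a different measure from those fitted here, which was not tested.

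**Figure D1:**
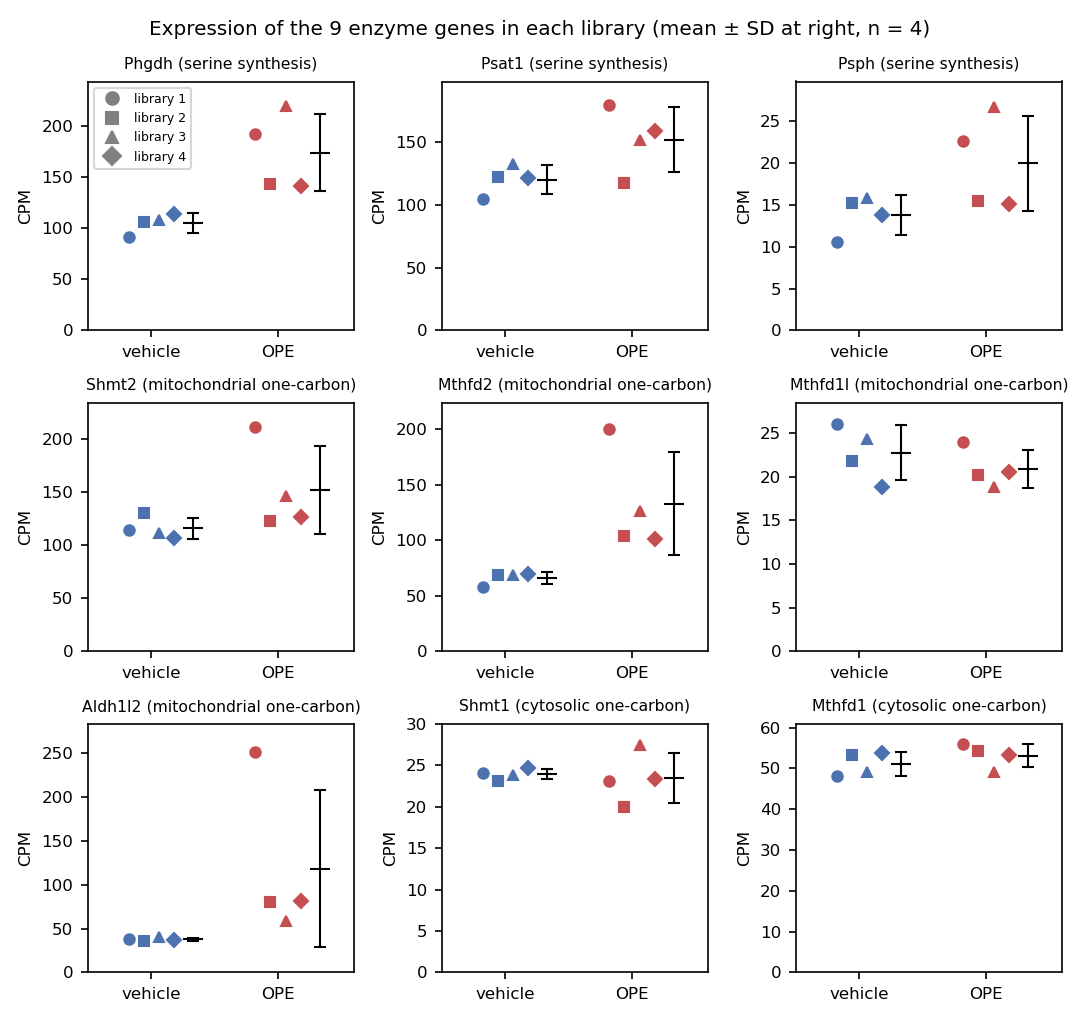
Each panel plots 1 gene, with CPM on a linear axis from 0 and the 4 vehicle (blue) and 4 OPE (red) libraries as points whose shape is the library number; the black bar is the mean ± SD (n = 4). Mthfd2, Aldh1l2 and Phgdh separate the groups, with OPE 1 far above the rest for Aldh1l2 at 252 CPM, while Shmt1 and Mthfd1 overlap between groups.

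Phgdh encodes the first and committed enzyme of serine synthesis (chromosome 3, 98313170 to 98339990, minus strand, mm10). It stood at 91.0, 106, 109 and 114 CPM in vehicle 1 to 4 and at 192, 144, 219 and 142 CPM in OPE 1 to 4. All OPE libraries were above all vehicle libraries, with OPE 3 the highest. The group means were 105 ± 9.96 and 174 ± 38.0 CPM (SD, n = 4 each), and the log2 fold change was 0.73 ± 0.15 (SE; edgeR adjusted p = 0.0552). Without OPE 3 it was 0.60 ± 0.11 and passed (adjusted p = 0.0219), and it also passed without OPE 4 (adjusted p = 0.0359). It did not pass without OPE 1 (0.67 ± 0.15, adjusted p = 0.121) or without both OPE 1 and OPE 3 (0.44 ± 0.09, adjusted p = 0.0600). Over the 20 alternatives tried the adjusted p ran from 0.000619 to 0.188, and 8 of them passed.

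Psat1, the phosphoserine aminotransferase (chromosome 19, 15904678 to 15947337, minus strand), stood at 105, 122, 132 and 121 CPM with vehicle and at 179, 117, 151 and 159 CPM with OPE. OPE 2 lay inside the vehicle range and the other OPE libraries above it. Its log2 fold change was 0.34 ± 0.13 (edgeR adjusted p = 0.279). Psph, the phosphatase of the last step (chromosome 5, 129765558 to 129787252, minus strand), was the least expressed of the trio, at 10.5, 15.2, 15.8 and 13.8 CPM with vehicle and 22.6, 15.4, 26.7 and 15.1 CPM with OPE. OPE 1 and OPE 3 were above the vehicle range and OPE 2 and OPE 4 within it. Its log2 fold change of 0.53 ± 0.20 (edgeR adjusted p = 0.29) was 0.14 ± 0.16 without OPE 1 and OPE 3. Neither gene passed in any of the 20 alternatives.

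Mthfd2, the mitochondrial methylenetetrahydrofolate dehydrogenase and cyclohydrolase (chromosome 6, 83305691 to 83317606, minus strand), stood at 58.4, 68.7, 68.9 and 70.0 CPM with vehicle. With OPE it stood at 200.3, 104, 127 and 101 CPM. Every OPE library was above every vehicle library, and OPE 1 was the highest. The group means were 66.5 ± 5.41 and 133 ± 46.4 CPM, with a log2 fold change of 1.00 ± 0.20 (edgeR adjusted p = 0.0522). Without OPE 1 it was 0.72 ± 0.11 and passed (adjusted p = 0.0286), and without OPE 4 it was 1.11 ± 0.20 and passed (adjusted p = 0.0359). Without both OPE 1 and OPE 3 it was 0.62 ± 0.09 (adjusted p = 0.0083). It passed in 6 of the 20 alternatives, with adjusted p from 0.000244 to 0.189.

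Aldh1l2, the mitochondrial 10-formyltetrahydrofolate dehydrogenase (chromosome 10, 83487450 to 83534140, minus strand), had the largest fold change of the 9. The vehicle libraries lay close together at 37.9, 35.7, 39.9 and 37.5 CPM, and the OPE libraries stood at 252, 79.9, 59.2 and 81.9 CPM. The groups did not overlap, and OPE 1 was 3.42 times the mean of the other OPE libraries. The log2 fold change was 1.65 ± 0.38 (edgeR adjusted p = 0.0877), and only 0.0644% of the genes tested had one as high. Without OPE 1 it was 0.96 ± 0.12 and passed (adjusted p = 0.0124), and without both OPE 1 and OPE 3 it was 1.10 ± 0.08 (adjusted p = 0.000182). It passed in 3 of the 20 alternatives, with adjusted p up to 0.262.

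Shmt2, the mitochondrial serine hydroxymethyltransferase (chromosome 10, 127517123 to 127522444, minus strand), stood at 115, 130.0, 111 and 107 CPM with vehicle and at 211, 122, 146 and 127 CPM with OPE. OPE 1 and OPE 3 were above the vehicle range and OPE 2 and OPE 4 were inside it. Its log2 fold change of 0.39 ± 0.16 (edgeR adjusted p = 0.324) was 0.18 ± 0.10 without OPE 1 (adjusted p = 0.558; 0.177 to 0.777 over the 20 alternatives). Mthfd1l, the formate-producing synthetase of mitochondria (chromosome 10, 3973118 to 4167081, plus strand), stood at 26.0, 21.8, 24.4 and 18.9 CPM with vehicle and at 24.0, 20.2, 18.8 and 20.5 CPM with OPE. The groups overlapped, with OPE 3 just below the lowest vehicle library, and this was the 1 mitochondrial member with a log2 fold change below 0 (-0.12 ± 0.13, edgeR adjusted p = 0.764).

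Of the cytosolic enzymes, Shmt1 (chromosome 11, 60788104 to 60811718, minus strand) stood at 24.1, 23.1, 23.8 and 24.6 CPM with vehicle and at 23.1, 20.0, 27.5 and 23.4 CPM with OPE. The OPE values lay on both sides of the narrow vehicle range, and the log2 fold change was -0.03 ± 0.11 (edgeR adjusted p = 0.952), with the sign turning under 3 of the 20 alternatives. Mthfd1 (chromosome 12, 76255232 to 76319820, plus strand) stood at 48.0, 53.2, 49.1 and 53.8 CPM with vehicle and at 55.9, 54.3, 49.0 and 53.4 CPM with OPE. Its groups overlapped, and its log2 fold change was 0.06 ± 0.09 (edgeR adjusted p = 0.84). Shmt1 overlaps Smcr8 on the other strand by 184 bases and Shmt2 overlaps Ndufa4l2 on the other strand by 30 bases, and no source used here states whether reads were counted by strand. Smcr8 had 449 to 1403 reads and Ndufa4l2 9 to 383 reads per library.

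**Figure D2:**
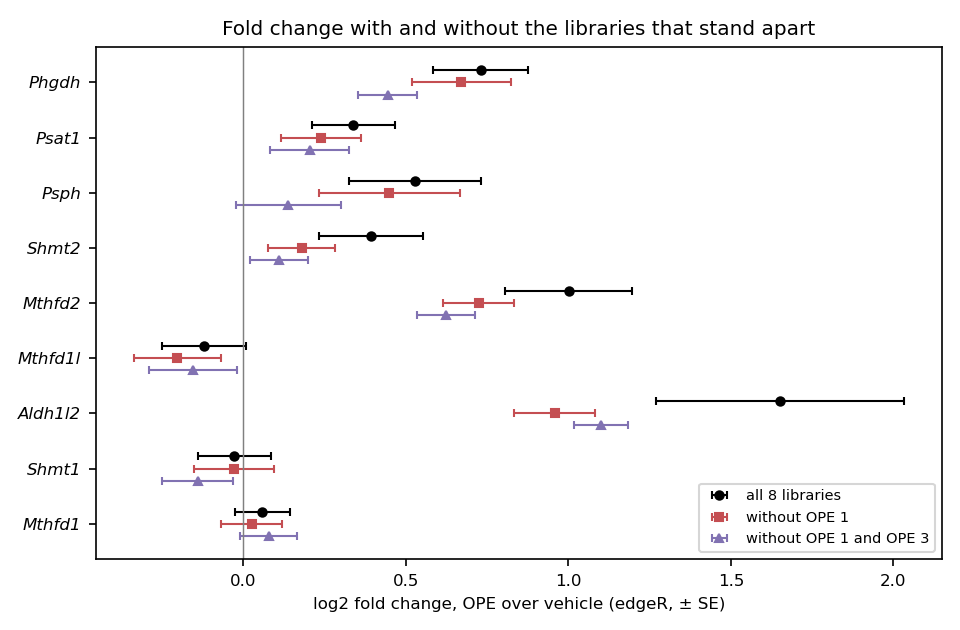
The horizontal axis is the log2 fold change of OPE over vehicle with its SE from edgeR, fitted with all 8 libraries (black), without OPE 1 (red) and without OPE 1 and OPE 3 (purple). Aldh1l2 goes from 1.65 to 0.96 without OPE 1 with a smaller SE, Mthfd2 from 1.00 to 0.72, and Mthfd1 stays within 1 SE of 0 in all 3 fits.

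Different OPE libraries were the highest for different members. In CPM, OPE 1 held the highest value of the 8 libraries for 5 members, namely Psat1, Shmt2, Mthfd2, Aldh1l2 and Mthfd1. OPE 3 held the highest for Phgdh, Psph and Shmt1. Without OPE 1, Mthfd2 and Aldh1l2 passed as higher, as did 0.0958% of all genes. Without both OPE 1 and OPE 3 the same pair passed, as did 0.144% of all genes as higher. Removing each library's trend on gene length gave 321 genes, 170 lower and 151 higher, against 74 genes, 68 lower and 6 higher, without that step. Phgdh was the 1 member among the 321 (0.74 ± 0.12, edgeR adjusted p = 0.0131).

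Levels can be compared between genes only per length, for which the deposited FPKM values (reads scaled by gene length and sequencing depth) were used. In the vehicle libraries Phgdh stood at 56.4 ± 5.64 FPKM (mean ± SD, n = 4), Shmt2 at 51.0 ± 4.48 and Psat1 at 46.6 ± 4.5, and the ranges of these neighbours overlapped. Mthfd2 followed at 32.4 ± 2.80, Mthfd1 at 15.6 ± 0.980 and Shmt1 at 8.52 ± 0.231 FPKM, each with its range apart from its neighbours. The lowest trio was Aldh1l2 at 6.37 ± 0.270, Mthfd1l at 6.27 ± 0.824 and Psph at 4.89 ± 0.856 FPKM, whose ranges overlapped from each to the next. With OPE the level of Aldh1l2 was 19.4 ± 14.9 FPKM, with 41.5 in OPE 1 and 9.13 to 13.6 in the other OPE libraries, all above Shmt1 in the same library.

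**Figure D3:**
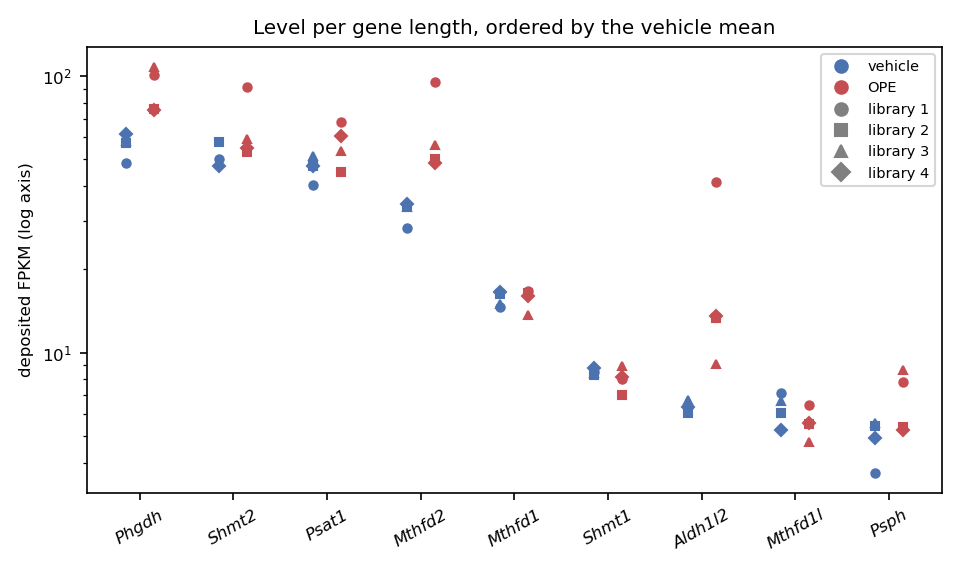
The vertical axis is deposited FPKM on a log scale, the genes are ordered by their vehicle mean, and each point is a library (vehicle blue, OPE red, shape for library number). Vehicle levels run from 56.4 FPKM for Phgdh to 4.89 FPKM for Psph, and the OPE points of Aldh1l2 lie above those of Shmt1 although its vehicle points lie below.

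The mitochondrial and cytosolic versions of a step were then set side by side in each library. The ratio of Mthfd2 to Mthfd1 FPKM was 1.94, 2.06, 2.24 and 2.07 in vehicle 1 to 4 and 5.71, 3.05, 4.12 and 3.02 in OPE 1 to 4. No OPE ratio lay in the vehicle range, and the means were 2.08 ± 0.123 and 3.98 ± 1.27. The ratio of Shmt2 to Shmt1 was 5.89, 6.96, 5.80 and 5.38 with vehicle and 11.3, 7.60, 6.61 and 6.72 with OPE. Here OPE 3 and OPE 4 lay inside the vehicle range, and without OPE 1 the OPE mean was 6.97 ± 0.540 against 6.01 ± 0.675 with vehicle. The ratio of Mthfd1l to Mthfd1 was 0.405 ± 0.0773 with vehicle and 0.354 ± 0.0222 with OPE, with all OPE values inside the vehicle range. The 4 mitochondrial members made up 79.9 ± 0.921% of the summed FPKM of the 6 one-carbon members with vehicle (78.6% to 80.8%) and 85.7 ± 3.21% with OPE (83.5% to 90.5%). The mean log2 fold change of the mitochondrial members was 0.715 above that of the cytosolic members, a difference given without a test because the genes were chosen with results known. Without OPE 1 it was 0.416.

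**Figure D4:**
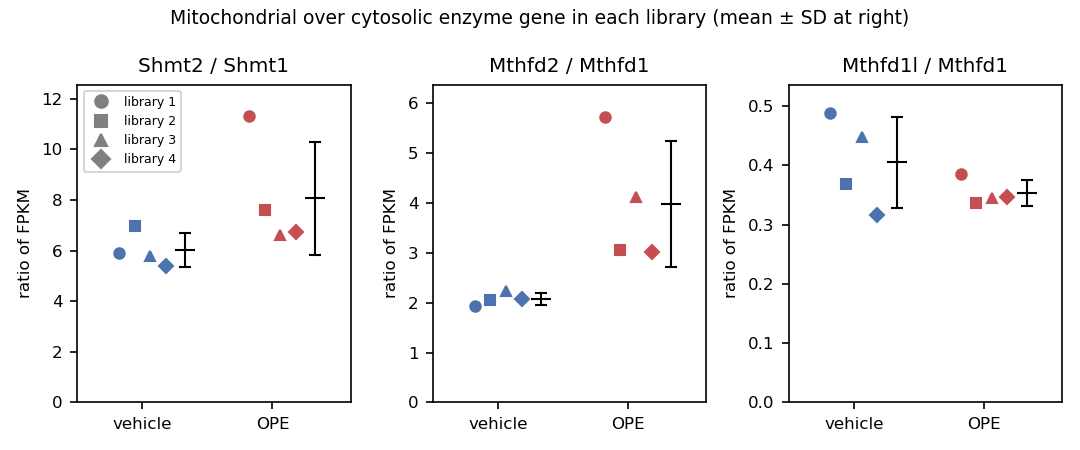
Each panel plots the ratio of the FPKM of a mitochondrial to a cytosolic enzyme gene in each library (linear axis from 0, vehicle blue, OPE red, shape for library number), with the mean ± SD (n = 4) in black. The Mthfd2 to Mthfd1 ratio is above 3 in every OPE library and at most 2.24 in the vehicle libraries, whereas the Mthfd1l to Mthfd1 ratio overlaps between the groups.

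No further gene of the pathway passed the test. Of 40 further genes of serine transport, glycine cleavage, folate handling, nucleotide synthesis and the methionine cycle, 35 were tested and none passed (edgeR; 0.477% of all genes did). At an unadjusted p of 0.05 the count was 5 of 35, against 13.2% of all genes in either direction. With DESeq2 2 passed, as did 3.11% of all genes, and with limma-voom 0, where 101 of 15517 genes passed. Of the 35, 21 had a log2 fold change above 0, as did 52.8% of all genes. Slc1a4, a transporter of serine and alanine, stood at 56.8 to 59.6 CPM with vehicle and at 215, 90.7, 90.6 and 92.7 CPM in OPE 1 to 4, so the groups did not overlap. Its log2 fold change was 1.07 ± 0.26 (edgeR adjusted p = 0.0972), and without OPE 1 it was 0.64 ± 0.08 and passed (adjusted p = 0.0104). The other 6 genes of its list, among them the mitochondrial serine carrier gene Sfxn1 (0.02 ± 0.10) and the glycine cleavage genes, did not pass either, and the list median was 0.02.

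In the methionine cycle and transsulfuration list, the smallest p belonged to Cth, cystathionine gamma-lyase, which makes cysteine from cystathionine. Cth stood at 5.14 to 6.92 CPM with vehicle and at 19.0, 10.1, 10.3 and 8.59 CPM in OPE 1 to 4 (log2 fold change 0.99 ± 0.24, edgeR adjusted p = 0.101). Without OPE 1 it was 0.66 ± 0.15 (adjusted p = 0.134), and it passed without OPE 3. The list of 8 tested genes had a median of -0.02, and 0.01 without OPE 1. Tyms, the thymidylate synthase, was lower in every OPE library (19.4, 35.3, 36.1 and 37.7 CPM) than in any vehicle library (41.8 to 52.4 CPM), with a log2 fold change of -0.61 ± 0.18 (edgeR adjusted p = 0.182). The purine synthesis genes gave log2 fold changes from -0.17 ± 0.10 for Ppat to 0.03 ± 0.10 for Atic, with Gart at -0.14 ± 0.09 and Paics at 0.02 ± 0.10. In the folate uptake list the smallest p was that of Folr2, a folate receptor of macrophages, with -0.56 ± 0.28 (adjusted p = 0.436) at about 1 CPM. The genes Folr1, Ftcd, Dmgdh and Bhmt2 had too few reads to be tested (5, 33, 7 and 3 reads over the vehicle libraries and 4, 43, 10 and 9 over the OPE libraries), and Bhmt was not analysed here.

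The list of ATF4 and its targets outside the pathway held 13 genes. All 13 had a log2 fold change above 0, with a median of 1.05 (0.74 without OPE 1). The groups did not overlap for 10 of them, all higher, against 4.05% of all genes. The count past the threshold was 2, against 0.0387% of all genes as higher. Gdf15, a stress cytokine gene, rose by 2.95 ± 0.34 (edgeR adjusted p = 0.0071). Its level was low, at a mean of 0.741 CPM with vehicle and 5.78 CPM with OPE (61 and 399 reads over the libraries of each group). Nupr1, a stress-induced chromatin protein gene, rose by 1.45 ± 0.27 (edgeR adjusted p = 0.0484), a call that was lost in 12 of the 20 alternatives, among them without OPE 1 (1.11 ± 0.20, adjusted p = 0.0559). These genes were listed with earlier results of these data known. The median of the list relative to the vehicle mean was 1.66, 0.59, 1.11 and 0.36 in OPE 1 to 4 (log2). The mitochondrial members had medians of 1.23, 0.37, 0.50 and 0.37, and the serine synthesis members 0.72, 0.17, 0.96 and 0.41, in the same order of libraries. The median of the ATF4 list was thus highest in OPE 1 and lowest in OPE 4. The median of the serine synthesis members was highest in OPE 3 and lowest in OPE 2, but no single gene had that order. Psat1 was highest in OPE 1 and lowest in OPE 2. Phgdh and Psph were highest in OPE 3 and, among the OPE libraries, lowest in OPE 4. Atf4 itself, named here after its values had been seen, stood at 218 to 255 CPM with vehicle and at 463, 314, 441 and 293 CPM with OPE (0.70 ± 0.15, adjusted p = 0.0679).

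**Figure D5:**
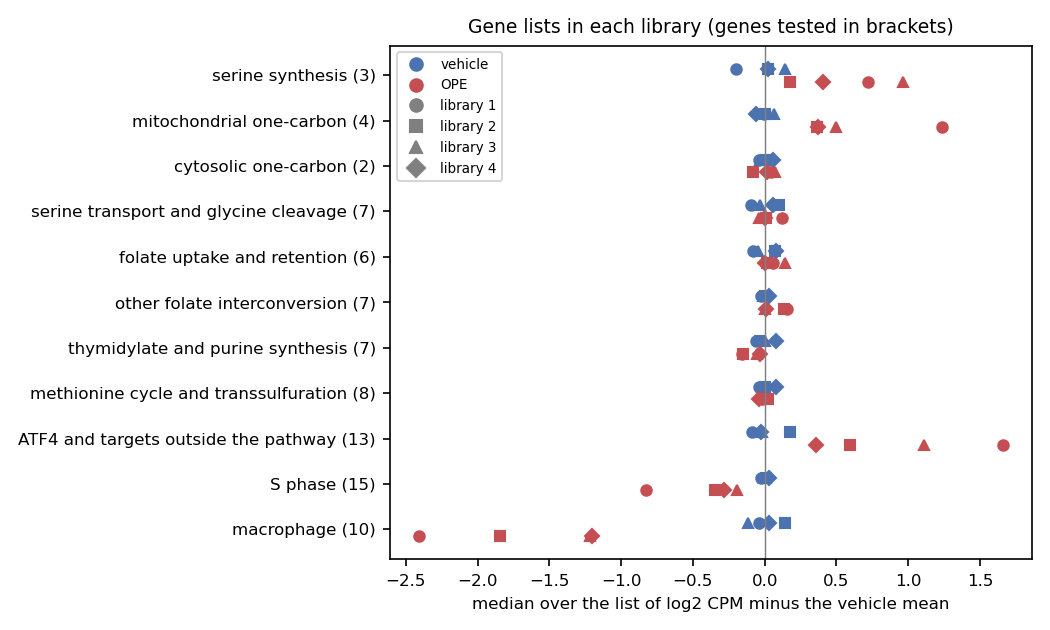
The horizontal axis is the median over the genes of a list of log2 CPM minus the vehicle mean, the points are libraries (vehicle blue, OPE red, shape for library number) and the brackets give the genes tested. Serine synthesis, mitochondrial and ATF4 lists lie to the right in the OPE libraries (ATF4 list 0.36 to 1.66), cytosolic and the other folate lists lie near 0, and S phase and macrophage lists lie to the left.

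Of the lists of cell cycle and cell type markers, S phase, macrophage and endothelial markers had lower summed levels in every OPE library than in any vehicle library. None of the S phase or endothelial markers and 7 of the 10 macrophage markers passed as lower (edgeR; 0.438% of all genes). All 15 S phase markers had a log2 fold change below 0 (median -0.35), and their median relative to the vehicle mean was -0.83, -0.35, -0.20 and -0.28 in OPE 1 to 4. Their summed level was 1230 to 1247 CPM with vehicle and 674 to 1080 CPM with OPE. All 10 macrophage markers were below 0 too (median -1.63), with summed levels of 145 to 165 and 28.2 to 72.4 CPM. Endothelial markers gave summed levels of 257 to 310.2 CPM with vehicle and 123 to 233 CPM with OPE, and cartilage markers 7945 to 9443 and 7957 to 8979 CPM. Of the 8 endothelial markers, 7 had a log2 fold change below 0, while Emcn was above 0 (0.34 ± 0.16). The groups did not overlap for 4 of the 8, all lower, against 5.44% of all genes lower. Erythroid markers had a median log2 fold change of 0.15 and reached 1.03 above the vehicle mean in OPE 3. The medians were 0.16 for skeletal muscle, 0.12 for limb mesenchyme and -0.33 for ectoderm markers, with no marker of these 4 lists past the threshold. None of the tested markers was at 0 in every library, which the filter on low counts already ensures. Their part in the values of the members was not tested.

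For each member the 3 genes with the most similar pattern were taken by Pearson correlation of log2 CPM over the 8 libraries, which share the group difference, the depth and the scaling. Mthfd2 was most like Chac1, Nupr1 and Asns (r = 0.99 each; 0.98, 0.99 and 0.98 without OPE 1), all of them ATF4 targets. Aldh1l2 was most like the amino acid transporter genes Slc7a5 and Slc1a4 and the methionyl-tRNA synthetase gene Mars (r = 0.99, 0.99 and 0.98; 0.97, 0.96 and 0.94 without OPE 1). Phgdh was most like Fzd9, Arl8b and Kdsr (r = 0.99, 0.98 and 0.98), and Psat1 most like Stard4, a sterol carrier gene (r = 0.97). Shmt2 was most like Lhfp, Herpud1 and Acot2 (r = 0.98, 0.97 and 0.96), and Psph like Fam180a, Cnn2 and Zfp954 (r = 0.98, 0.97 and 0.97). Mthfd1l was most like the cartilage genes Col2a1 and Acan and Nek4 (r = 0.95 each). Shmt1 was most like Slc7a4, Rbm34 and Micu2 (r = 0.95 each), and Mthfd1 like Tulp3, Lsm14b and Trim8 (r = 0.96, 0.94 and 0.94). Among the members themselves, r between Mthfd2 and Phgdh was 0.91 (0.96 without OPE 1), and r between Shmt1 and Mthfd1 was -0.55.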

How the data were processed

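Poly-A RNA of cultured forelimb buds was sequenced, per the labels' protocols. STAR 2.5, HTSeq 0.6.1, CASAVA 1.8, DESeq2 (version given as 2) and mm10 are named, without roles, per the submitters' processing notes. No source used here states the annotation or strand setting. The authors deposited raw read counts per gene, signal values (counts divided by 1 factor per library, 0.803 to 1.25, checked on the values), FPKM values, and their log2 fold changes and p-values.

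Libraries were grouped by title and all 8 were used. The main test, on the deposited counts, was edgeR 4.0.16 under R 4.3.3 (scaling by TMM, filterByExpr, robust quasi-likelihood, group as the only term, two-sided, Benjamini-Hochberg at 0.05 over all 15517 genes tested); the SE is the fold change divided by the square root of F. Log2 CPM has a prior count of 2. Replicates differed by more than counting noise (the lowest ratio of chi-square to its degrees of freedom was 5.10), and all were kept. On simulated data with 15328 genes, 49.3%, 94.0% and 100% of genes changed 1.5-, 2- and 4-fold were called. Of the 172 calls there, 10 were false. These rates describe the simulated data only, and whether they hold for the real libraries was not tested. In the real data Mthfd2, at 2.0 times the vehicle level, and Aldh1l2, at 3.14 times, did not pass.

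The members, lists, tests and alternatives were chosen with earlier results of these data known. Genes named are the 9 members, in each list those past the threshold or else that of smallest p, the genes too low to test, and the 3 most correlated genes of at least 5 CPM; other names were chosen after their values were seen. A gene that this rule names is not reported here. Alternatives used other scaling, filters, DESeq2 1.42.0, limma-voom (limma 3.58.1), other edgeR settings, a gene-length offset (spline, 4 degrees of freedom), a block for the replicate number, and fits without single libraries.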

Additional observations from a re-analysis of the deposited data

Results flagged for a closer look

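In the 18 groups of 4 values (9 genes, vehicle and OPE), 2 single libraries stood apart from the rest of their group by Dixon's criterion, which by chance marks about 1 in 20 groups. Aldh1l2 was at 252 CPM in OPE 1 and at 81.9 CPM in the next library, a gap of 0.882 of the range of the group. Mthfd2 was at 58.4 CPM in vehicle 1 and at 68.7 CPM in the next library, a gap of 0.89 of the range.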

How the results depend on the processing

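Of 180 comparisons of a member's fold change with an alternative, 160 kept the sign and the side of the threshold and 17 passed where the reported value did not. The remaining 3 reversed, all for Shmt1 and all near 0: 0.016 with the gene-length offset, 0.0092 with the replicate block and that offset, and 0.040 without OPE 2 (-0.110 to 0.040 when 1 library was left out). The count of members past the threshold was 0 as reported and 0 in 10 of the 20 alternatives. It was 1 with library totals, 2 without a low-count filter, 3 with DESeq2, 2 with the newer quasi-likelihood method of edgeR, 1 with the gene-length offset, 1 with the replicate block and offset, and 2 without both OPE 1 and OPE 3. Leaving out 1 library gave 0 to 2 members: Mthfd2 and Aldh1l2 without OPE 1, Phgdh without OPE 3, and Mthfd2 and Phgdh without OPE 4. Over all genes the count of 74 became 131, 136, 504, 112, 321 and 257 under the first 6 of these, and 7 to 308 when 1 library was left out (8, 7, 19 and 7 without vehicle 1 to 4, and 58, 12, 308 and 178 without OPE 1 to 4). The count over the ATF4 list and the 5 folate lists together was 2 as reported (Gdf15 and Nupr1, both of the ATF4 list), 4 without a low-count filter, 1 with a minimum of 1 CPM in 4 libraries, 11 with DESeq2 (9 of the ATF4 list), 5 without both OPE 1 and OPE 3, and 1 to 9 when 1 library was left out (1 without each vehicle library and without OPE 2, 5 without OPE 1 and 9 without OPE 4). The cause of these changes was not tested. The mitochondrial minus cytosolic difference ran from 0.416 to 0.816.

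With the replicate number as a block 62 genes passed, with no member, no gene of the 5 folate lists and 1 gene of the ATF4 list, Gdf15, among them. The labels do not say what a number shares. Same-numbered libraries correlated in their deviations at 0.309, 0.0818, 0.0126 and 0.0918, and OPE 3 correlated best with vehicle 2 (0.361), so not every library correlated best with its own number. Reads per library for the members ran from 186 (Psph) to 5456 (Aldh1l2), so counting error is largest for Psph.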

Other observations

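Within serine synthesis, the ratio of Psat1 to Phgdh FPKM was 0.833, 0.83, 0.881 and 0.766 in vehicle 1 to 4 and 0.676, 0.592, 0.499 and 0.808 in OPE 1 to 4, so 3 of the OPE libraries lay below the vehicle range and OPE 4 inside it. The ratio of Psph to Phgdh was 0.0864 ± 0.0104 with vehicle and 0.0745 ± 0.00507 with OPE, with overlapping groups.

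Vehicle 1 held the lowest value of the 8 libraries for 5 of the members, namely Phgdh, Psat1, Psph, Mthfd2 and Mthfd1, and the highest for Mthfd1l.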
